A study of Arabidopsis thaliana with 18 samples.

Results

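The 4 genes ccb382, ccb203, matR and orfX of the Arabidopsis thaliana mitochondrial genome were followed through recovery from heat acclimation, in the wild type Col (Columbia) and in the mutant bru1. They were chosen by name, and each was measured by 1 probe set. They stand among 13355 genes that have a probe set of their own in the platform annotation of the ATH1 array. Total RNA of 4-day-old seedlings, grown on medium with glucose (days of 16 h at 23 °C, nights of 8 h at 21 °C), was hybridised to 18 arrays, 3 for each of 6 groups. The heated groups received 1 h at 37 °C, 1.5 h at 23 °C and 45 min at 44 °C, starting 6 h after dawn, and were harvested 4 h or 52 h after this acclimation. The untreated control groups of Col and bru1 were harvested with the 4 h groups, so that at 52 h both heat and an older age separate the seedlings from their control, and these cannot be told apart. All harvests fell at the same time of day, and the labels call the arrays of a group biological replicates. The bru1 groups are named by genotype alone in the labels, with no allele given, and the RNA was that of seedlings, with no organ or cell type named.

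The genes belong to the expression and assembly side of the organelle. Plant mitochondria attach haem to c-type cytochromes with a multi-subunit maturation system of bacterial origin, and in Arabidopsis its haem lyase subunit is split over separate mitochondrial genes. RefSeq names ccb382 as ccmFN1 and ccb203 as ccmFN2, both pieces of the amino-terminal part of that lyase. The gene matR encodes a maturase-like protein, related to proteins that assist the removal of group II introns, and its reading frame lies within an intron of nad1, a gene of respiratory complex I. RefSeq names orfX as mttB, also called tatC, after the TatC subunit of the twin-arginine translocase, which moves folded proteins across membranes. In the order of protein-coding genes of the RefSeq annotation (assembly TAIR10.1), ccmC lies between ccb203 and ccb382, rps12 and cox3 are their outer neighbours, and rpl2 lies between orfX and matR. The gene mutated in the second genotype encodes BRU1 or TONSOKU, a protein of the nucleus with a role in keeping the genome stable.

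The probe sets of matR and orfX carry the suffix given on this array to probe sets that match several transcripts. Chromosome 2 of Columbia carries a large copy of mitochondrial DNA, and signal from nuclear copies cannot be told apart from signal of the organelle for any of the 4 genes. In whole seedlings, more mitochondria, more mitochondrial RNA per organelle and a changed mixture of cells cannot be told apart either.

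The values are log2 levels after robust multi-array averaging (RMA), with array medians between 6.49 and 6.55, so a difference of 1 is a doubling of signal. The replicate arrays correlated with the rest of their own group at r between 0.986 and 0.996 on average. Changes are given as log2 differences ± the standard error (SE), fitted with limma over 22746 probe sets and called at a Benjamini-Hochberg adjusted p under 0.05. The table holds no detection calls, and a group mean at or under 4.39, the highest lower quartile of any array, is treated here as dim. The means of ccb203 in both controls and of matR in both controls and both 52 h groups fell under this line, so folds against them are given as lower bounds, taken from the line itself.

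**Figure D1:**
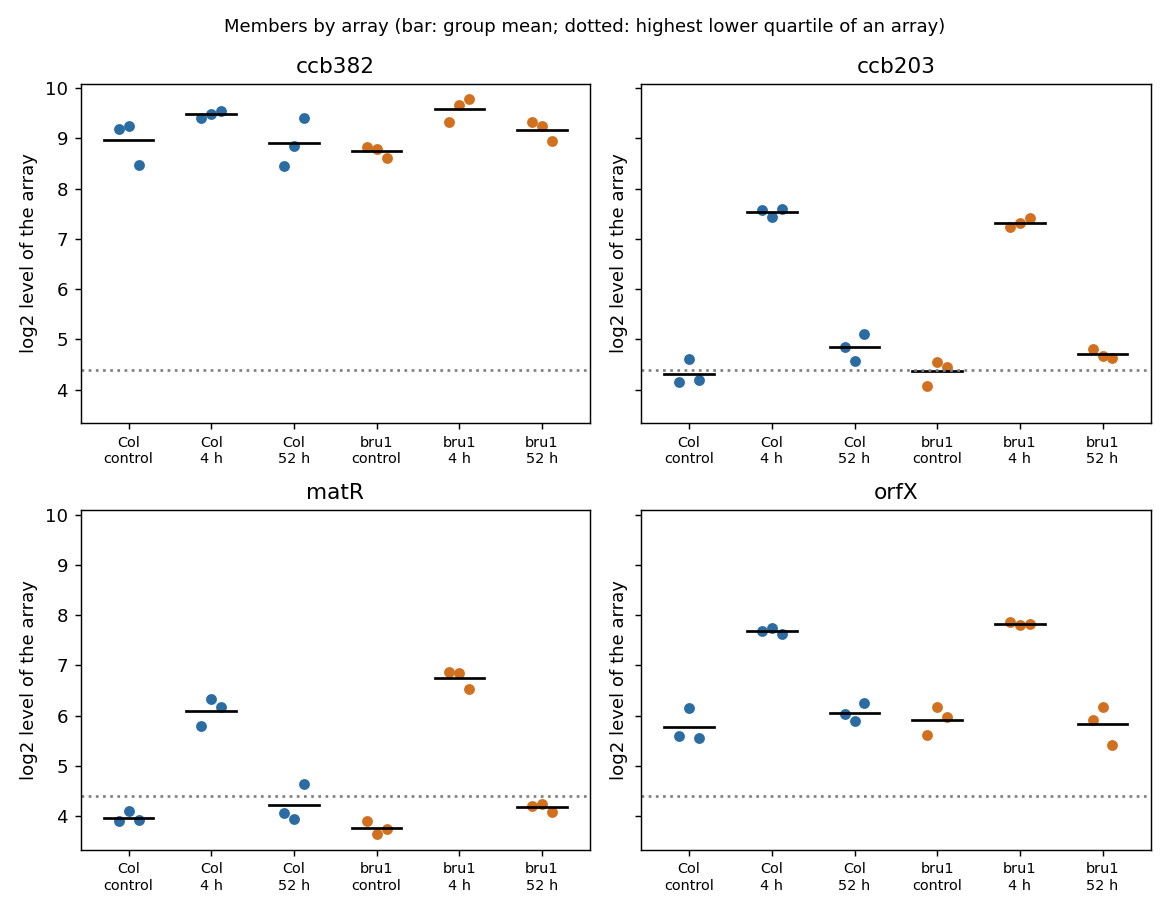
The log2 level of ccb382, ccb203, matR and orfX on each of the 18 arrays, by genotype and time, with points for arrays, bars for group means and a dotted line at 4.39, the highest lower quartile of an array. The arrays at 4 h stand above all other arrays for ccb203, matR and orfX, while the groups lie close together for ccb382.

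In Col, 3 of the 4 genes rose strongly by 4 h after acclimation and 1 did not pass the test. The level of ccb203 was 4.16, 4.60 and 4.19 on the Col control arrays and 7.57, 7.44 and 7.60 at 4 h. The heated arrays were tightly grouped and lay far above the controls. The change was 3.22 ± 0.15 (SE, n = 3 arrays a group, adjusted p = 3.06e-11), a rise of at least 8.85-fold by group means. The lower 95% limit of the fitted fold was 7.51.

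The level of matR was 3.89, 4.09 and 3.92 in the Col controls and 5.78, 6.32 and 6.16 at 4 h. Every heated array lay above every control, and the heated arrays differed more among themselves than the controls did. The maturase gene rose by 2.12 ± 0.16 (adjusted p = 2.29e-08), at least 3.24-fold.

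The level of orfX was 5.59, 6.14 and 5.55 in the Col controls and 7.68, 7.75 and 7.63 at 4 h. The control array of replicate 2 was the highest of its group, and it too lay well below the heated arrays. The gene of the TatC subunit rose by 1.93 ± 0.18 (adjusted p = 2.86e-07), which is 3.80-fold with a 95% confidence interval from 2.90 to 4.97.

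The level of ccb382 was 9.20, 9.24 and 8.47 in the Col controls and 9.41, 9.49 and 9.55 at 4 h. The groups did not overlap, but the control array of replicate 3 lay far below the other two. The change of 0.51 ± 0.21 did not pass the test (adjusted p = 0.0714), and its 95% interval ran from 0.06 to 0.97. The value depended on single control arrays. Without the control array of replicate 3 it was 0.26 (adjusted p = 0.375), and without that of replicate 2 it was 0.65 and passed (adjusted p = 0.0447). It also passed when Col 4 h and Col control were fitted alone (adjusted p = 0.0461), and in no other alternative fit. Thus 3 of the 4 genes rose in Col at 4 h, where 18.2% of all probe sets were called higher. Their median change was 2.02, and that of all probe sets was 0.00.

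In bru1 all 4 genes rose at 4 h, against 19.9% of all probe sets called higher. The level of ccb203 was 4.08, 4.56 and 4.45 in the bru1 controls and 7.24, 7.31 and 7.42 at 4 h. As in Col, the heated arrays lay far above the controls. The rise was 2.96 ± 0.15 (adjusted p = 7.62e-11), at least 7.62-fold by group means. The lower 95% limit of the fitted fold was 6.28.

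The level of matR was 3.90, 3.63 and 3.74 in the bru1 controls and 6.86, 6.84 and 6.54 at 4 h. All 3 heated arrays exceeded the highest matR value of any other group. The rise was 2.99 ± 0.16 (adjusted p = 2.65e-10), at least 5.12-fold.

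The level of orfX was 5.61, 6.18 and 5.97 in the bru1 controls and 7.86, 7.80 and 7.83 at 4 h. The heated arrays were almost equal and did not overlap with the controls. The rise of 1.91 ± 0.18 (adjusted p = 3.04e-07), or 3.76-fold, differed from that in Col by -0.02.

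The level of ccb382 was 8.82, 8.80 and 8.62 in the bru1 controls and 9.32, 9.67 and 9.78 at 4 h. Here the controls were close to each other and the heated arrays lay above all of them. The haem lyase gene rose by 0.84 ± 0.21 (adjusted p = 0.00427), which is 1.80-fold with an interval from 1.31 to 2.45. This call was kept under each alternative fit and without each array in turn. The median over the 4 genes was 2.44 in bru1, and that over all probe sets was 0.01.

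**Figure D2:**
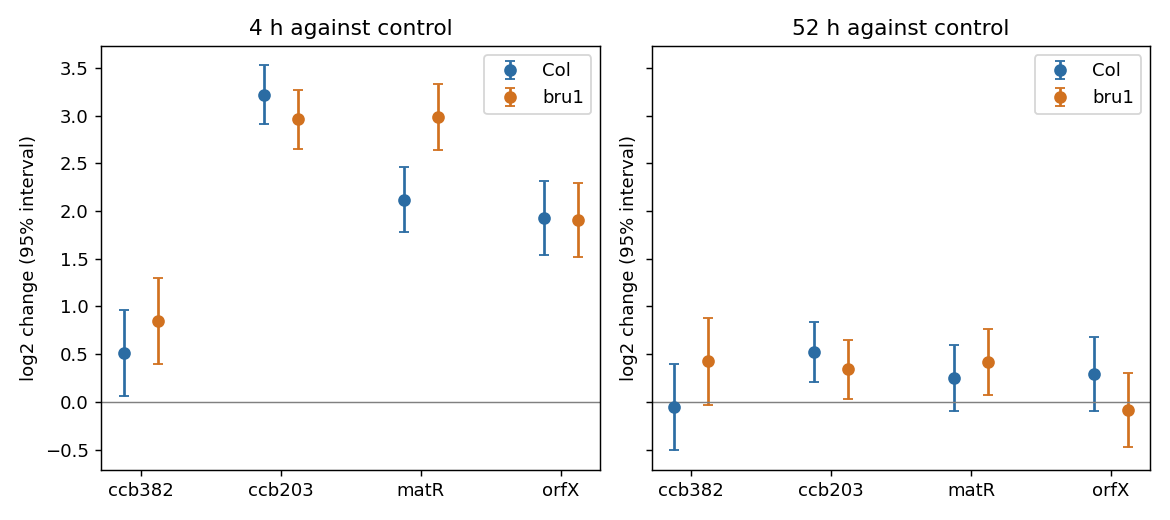
The log2 change of each gene against the control of its own genotype at 4 h and at 52 h, with 95% confidence intervals from limma, for Col in blue and bru1 in orange. At 4 h the changes run from 0.51 to 3.22, and at 52 h from -0.09 to 0.52.

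The pair of haem lyase genes moved by different amounts. On each array the level of ccb203 was set against that of ccb382, a comparison chosen after the data had been seen. This difference averaged -4.65 ± 0.38 (SD, n = 3) in the Col controls and -1.95 ± 0.11 at 4 h, a shift of 2.71. In bru1 it averaged -4.39 ± 0.31 in the controls and -2.27 ± 0.16 at 4 h, a shift of 2.12. In neither genotype did the arrays overlap, and the exact two-sided permutation test gave p = 0.1 for each, the smallest value that 3 arrays against 3 allow. The shifts concern signal on each probe set, and ccb203 started from a dim level while ccb382 did not.

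The other genes differed from ccb382 in the same way at 4 h. The shift of matR against ccb382 was 1.61 in Col and 2.14 in bru1, and that of orfX against ccb382 was 1.41 and 1.07, each with no overlap and exact permutation p = 0.1. Between matR and orfX the arrays of bru1 separated, with a shift of 1.08 (exact permutation p = 0.1). In Col they did not, with a shift of 0.20 (exact permutation p = 0.4). The matR controls were dim in both genotypes, so the sizes of its shifts describe signal. Against the line for dim values matR rose by at least 1.70 in Col and 2.36 in bru1, where orfX rose by 1.93 and 1.91. Between ccb203 and orfX the shifts at 4 h were 1.29 in Col and 1.05 in bru1, and at 52 h 0.23 and 0.43. The exact permutation p was 0.1 for each. All other pairs overlapped at 52 h. Between ccb203 and matR the shift at 4 h was 1.10 in Col (exact permutation p = 0.1) and -0.03 in bru1 (p = 0.9). The ccb203 controls were dim too. In all, 6 pairs of genes were compared in each genotype and at each time. Since no single p can fall below 0.1, none can pass an adjustment over these pairs.

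**Figure D3:**
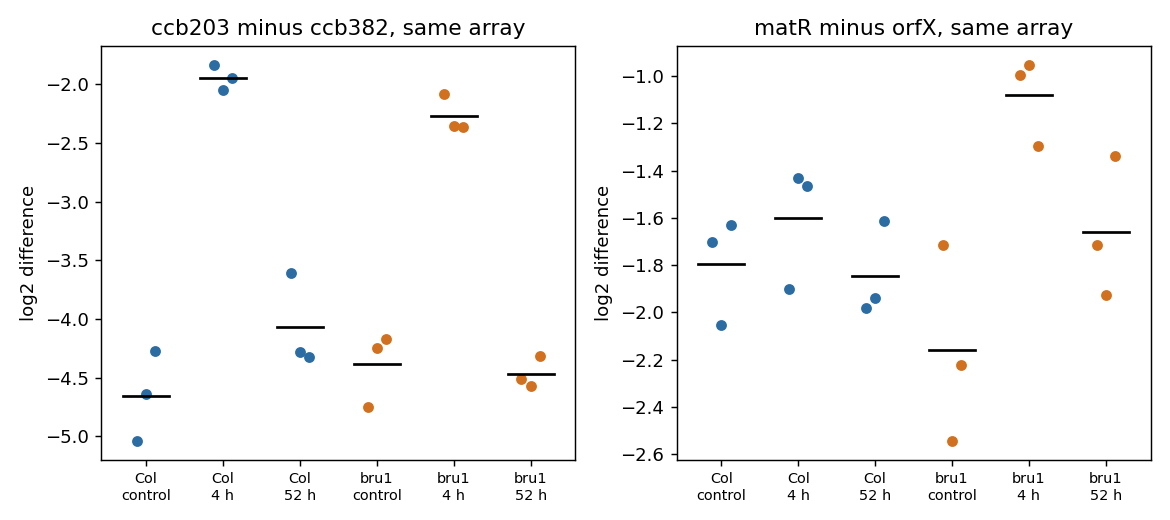
The within-array log2 difference between ccb203 and ccb382 (left) and between matR and orfX (right), with a point for each array and a bar for each group mean. On the left the 4 h groups, at -1.95 in Col and -2.27 in bru1, stand above all other groups. On the right only the bru1 4 h arrays stand above their own control arrays. The controls of ccb203 and matR were dim in both genotypes.

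By 52 h most of the rise had gone. In Col, ccb203 read 4.86, 4.57 and 5.10 at 52 h, and the lowest array of these fell within the range of the controls. The remaining change of 0.52 ± 0.15 passed the test (adjusted p = 0.0225), where 6.93% of all probe sets were called higher. The call rested on single arrays. It was lost without the control array of replicate 1 (0.44, adjusted p = 0.103) or replicate 3 (0.46, 0.0908). It was also lost without the 52 h array of replicate 1 (0.52, 0.0621) or replicate 3 (0.40, 0.11), and when those groups were fitted alone (adjusted p = 0.0926).

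For matR the Col arrays at 52 h read 4.05, 3.95 and 4.64. The third array stood above the line for dim values and the others lay within the control range. The change was 0.25 ± 0.16 (adjusted p = 0.374). For orfX they read 6.03, 5.88 and 6.25, and the change was 0.29 ± 0.18 (adjusted p = 0.334), with overlapping groups.

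For ccb382 the Col arrays at 52 h read 8.46, 8.86 and 9.42, the widest spread of any group for this gene. They spanned the controls, and the change was -0.06 ± 0.21 (adjusted p = 0.908). So 1 of the 4 genes was called higher in Col at 52 h, and the median change was 0.27.

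In bru1 none of the 4 was called at 52 h by limma, where 3.05% of all probe sets were called higher. At an unadjusted p under 0.05 there were 2, ccb203 and matR, where 2053 of 22746 probe sets were higher at that threshold. The level of ccb203 was 4.81, 4.67 and 4.63, just above all its controls, with a change of 0.34 ± 0.15 (adjusted p = 0.198). The level of matR was 4.21, 4.25 and 4.07, above all its controls and still under the line for dim values, with a change of 0.42 ± 0.16 (adjusted p = 0.153). Weighting the arrays by their quality called these 2 genes.

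For ccb382 the bru1 arrays at 52 h read 9.32, 9.25 and 8.94, again above all controls. The change was 0.42 ± 0.21 (adjusted p = 0.301), with an interval from -0.03 to 0.87. For orfX they read 5.92, 6.17 and 5.41, an overlap with the controls, and the change was -0.09 ± 0.18 (adjusted p = 0.88).

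The decline from 4 h to 52 h was tested directly. In Col, 3 of the 4 genes fell, where 16.9% of all probe sets were called lower. The level of ccb203 fell by 2.70 ± 0.15 (adjusted p = 6.39e-10), or 6.48-fold. That of matR fell by 1.88 ± 0.16 (adjusted p = 1.26e-07), at least 3.24-fold, and that of orfX fell by 1.63 ± 0.18 (adjusted p = 2.49e-06), or 3.10-fold. No array of the later time reached the earlier level in these genes.

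The difference for ccb382 in Col was -0.57 ± 0.21, with an adjusted p of 0.05004 that lay just above the threshold. Only the third array at 52 h, at 9.42, reached the range of the 4 h arrays. Without it the difference was -0.83 (adjusted p = 0.00403), and without the 52 h array of replicate 1 it was -0.35 (adjusted p = 0.275). It passed in 5 of 8 alternative fits, and did not pass with a replicate block (adjusted p = 0.0667), with robust fitting (0.0507) or with those groups fitted alone (0.095).

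In bru1 the same 3 genes fell, where 20.1% of all probe sets were called lower. There ccb203 fell by 2.62 ± 0.15 (adjusted p = 6.72e-10) and matR fell by 2.57 ± 0.16 (adjusted p = 2.84e-09), at least 5.12-fold. The level of orfX fell by 1.99 ± 0.18 (adjusted p = 1.79e-07). For ccb382 the difference of -0.42 ± 0.21 did not pass (adjusted p = 0.138), although its arrays at 52 h all lay at or below the lowest array at 4 h.

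The order of the 6 groups was alike in the genes that rose most. For ccb203, matR and orfX both 4 h groups came first, with no overlap with the other groups. For ccb203 Col led with 7.54 ± 0.09 (SD, n = 3), followed by bru1 with 7.32 ± 0.09. For matR the order was reversed, bru1 leading with 6.75 ± 0.18 and Col following with 6.09 ± 0.27. Below these, the 52 h and control groups of matR and orfX overlapped with their neighbours in the order. For ccb203 the bru1 52 h arrays lay above all bru1 control arrays, and the other neighbours overlapped. For ccb382 bru1 at 4 h led with 9.59 ± 0.24 and bru1 control was last with 8.75 ± 0.11. Col 4 h and bru1 52 h were the only neighbours in that order whose arrays did not overlap.

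Between the genotypes, matR at 4 h was the 1 call. It was higher in bru1 than in Col by 0.66 ± 0.16 (adjusted p = 0.0124), with an interval from 0.31 to 1.00, which is 1.58-fold. All bru1 arrays lay above all Col arrays, and both groups were well above the line for dim values. In this comparison 13.4% of all probe sets were called in either direction. The call was lost without Col 4 h replicate 1, the lowest of its group (0.51, adjusted p = 0.0815), or without bru1 4 h replicate 1 (0.60, adjusted p = 0.0572). Relative to the median of the other mitochondrial probe sets on each array, matR overlapped between the genotypes at 4 h. It averaged -2.77 ± 0.38 (SD, n = 3) in Col and -2.42 ± 0.29 in bru1. Relative to the 25S ribosomal RNA control matR overlapped too, at -6.73 ± 0.44 and -6.50 ± 0.18. That control averaged 12.82 in Col and 13.25 in bru1, without overlap, and its part was not tested.

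The other genes were not called between the genotypes at 4 h. For ccb203 the bru1 arrays all lay just below the Col arrays, by -0.21 ± 0.15 (adjusted p = 0.398). For orfX they all lay just above, by 0.14 ± 0.18 (adjusted p = 0.701). For ccb382 they overlapped, with a difference of 0.11 and an interval from -0.34 to 0.56 (adjusted p = 0.82).

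In untreated seedlings none of the 4 genes was called between bru1 and Col by limma, where 10.3% of all probe sets were called in either direction. Nor did any reach an unadjusted p under 0.05, as 5491 of 22746 probe sets did. The differences ran from -0.22 for ccb382 to 0.16 for orfX. At 52 h again none of the 4 was called, against 11.5% of all probe sets. None had an unadjusted p under 0.05, against 5690 of 22746 probe sets. There the differences ran from -0.22 for orfX to 0.26 for ccb382.

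Whether the heat response itself differed between the genotypes was tested as an interaction, which subtracts the change in Col from the change in bru1. No gene was called by limma at 4 h, where 0.343% of all probe sets were called. For matR the difference was 0.87 ± 0.23, with an interval from 0.38 to 1.36 (unadjusted p = 0.00158, adjusted p = 0.122). The matR controls it rests on were dim in both genotypes. Its range was 0.72 to 0.98 without each array in turn, and with array weights the difference of 0.88 passed (adjusted p = 0.015). The interval was -0.70 to 0.18 for ccb203, -0.56 to 0.53 for orfX and -0.31 to 0.97 for ccb382.

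No interaction was called for the change at 52 h, where 0.119% of all probe sets were called. There none of the 4 genes had an unadjusted p under 0.05, against 2079 of 22746 probe sets. None was called for the change from 4 h to 52 h, where 0.576% were. In that last test the fitted difference for matR was -0.70 ± 0.23, a larger fall in bru1 that was not called. The matR means at 52 h were dim in both genotypes, so the size of this difference describes signal. Of the 4 genes only matR had an unadjusted p under 0.05 (0.0079, adjusted p = 0.179). At that unadjusted threshold 3226 of 22746 probe sets passed.

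Most other measured genes of the mitochondrial genome also rose. Of the 12 other mitochondrial genes measured, each read from its brightest probe set, 11 were called higher at 4 h in Col and 11 in bru1, with median changes of 4.35 and 4.49. The control means of 5 of the 12 in Col and 4 in bru1 were dim. With dim means set to the line, the medians were 4.31 and 4.49. The highest fitted change was that of nad6, with 8.15 in Col and 7.61 in bru1. Its controls were dim, and against the line it rose by at least 7.25 and 7.35, where nad5 rose by at least 7.18 and 7.44. The lowest fitted change was that of nad2, with -0.28 and -0.01, but nad2 was dim in all 6 groups and so gives no measure of change. At 52 h, 8 of the 12 were still called higher in each genotype. Over all probe sets 18.2% in Col and 19.9% in bru1 were called higher at 4 h, and 6.93% and 3.05% at 52 h. The other measured genes of cytochrome c maturation were ccb206, which RefSeq names ccmB, and ccb452, named ccmFC, the remaining piece of the haem lyase.

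The gene ccb206 rose by 2.34 ± 0.23 in Col (adjusted p = 4.31e-07) and by 2.37 ± 0.23 in bru1 (adjusted p = 3.60e-07) at 4 h. The gene ccb452 rose by 3.44 ± 0.18 (adjusted p = 1.21e-10) and 3.24 ± 0.18 (adjusted p = 2.37e-10). The change of ccb203 was thus closer to that of ccb452 than to that of ccb382. At 4 h the change of ccb382 ranked 20 among the 23 mitochondrial probe sets in either genotype, also with dim means set to the line. All probe sets ranked below it, of nad1 and nad2, had dim controls. Among mitochondrial probe sets with controls above the line, ccb382 thus changed least. At 52 h ccb452 was still called higher, by 1.19 in Col and 0.79 in bru1. The corresponding values of ccb206 were 0.67 and 0.41, and neither was called.

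The 7 probe sets of nad1, whose intron holds the matR reading frame, differed among themselves at 4 h, and 6 were called higher in each genotype. The controls of 4 of them were dim, as were those of matR. The changes of the other 3 ran from 1.78 to 3.85 in Col and from 1.70 to 3.96 in bru1. Against the line matR rose by at least 1.70 and 2.36. No nad1 probe set was called between bru1 and Col at 4 h, where matR was.

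**Figure D4:**
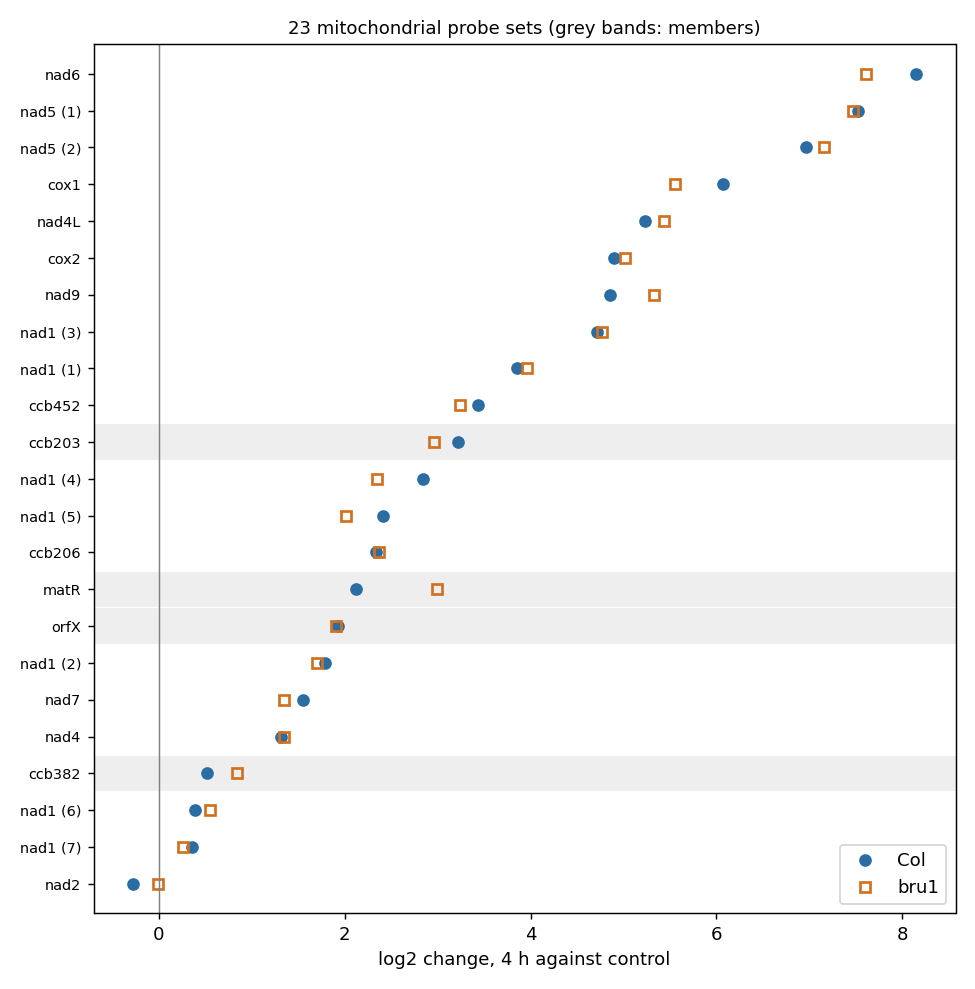
The log2 change at 4 h of all 23 mitochondrial probe sets, ordered by the fitted change in Col (blue circles), with bru1 as orange squares and grey bands for ccb203, matR, orfX and ccb382. Changes from dim controls, among them those of ccb203, matR, nad5 and nad6, were fitted against dim signal. The 4 genes lie in the middle and lower part of the order, ccb382 near its end.

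To compare the genes with the other mitochondrial RNAs on the same array, each level was set against the median level of the 19 other mitochondrial probe sets. That median rose by 4.37 in Col and 4.66 in bru1 at 4 h. The median of the changes of these 19 was smaller, 3.44 in Col and 3.24 in bru1, so the shifts depend on the choice of reference. By fitted change ccb203 ranked 11 in Col and 12 in bru1 among the 23 mitochondrial probe sets, near the middle. Relative to the median level, ccb203 shifted by -1.15 in Col and -1.70 in bru1, and matR by -2.25 and -1.67. The shifts of orfX were -2.44 and -2.75, and those of ccb382 were -3.85 and -3.81. In each case the arrays did not overlap, with exact permutation p = 0.1, the smallest possible. The controls of ccb203 and matR were dim, as were those of 10 of the 19 reference probe sets in Col and 8 in bru1, so these sizes describe signal. The levels of ccb382 and orfX were never dim. At 52 h their shifts were -1.52 and -1.17 in Col and -1.08 and -1.59 in bru1. The shifts of ccb203 were -0.94 in Col and -1.16 in bru1. For matR, dim in the controls and at 52 h, no shift is given for that time.

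Relative to the median of 69 plastid probe sets all 4 genes shifted upward at 4 h. The smallest shifts were those of ccb382, 1.20 in Col and 2.11 in bru1, and the largest was 4.25 for matR in bru1 (exact permutation p = 0.1 for each of the 8). The plastid median itself changed by -0.69 in Col and -1.27 in bru1. With the mean in place of the median, some shifts against the mitochondrial and plastid references moved by more than 1 SD. The upward shifts of ccb203 and matR start from dim controls, here and against ribosomal RNA.

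The control probe set for nuclear-encoded 25S ribosomal RNA was also higher after heat, by 1.32 in Col and 2.12 in bru1 at 4 h and by 0.77 and 1.05 at 52 h (exact permutation p = 0.1 for each). Relative to it, ccb203 shifted at 4 h by 1.90 in Col and 0.84 in bru1, and matR by 0.81 and 0.87, with arrays that did not overlap. For orfX the shifts were 0.61 (exact permutation p = 0.3) and -0.21 (p = 1), with overlapping arrays. For ccb382 they were -0.80 (exact permutation p = 0.2) and -1.27 (p = 0.1). Signs of RNA quality were also read. The level at the 3' end minus that at the 5' end of actin was higher at 4 h, by 0.55 in Col and 0.48 in bru1, with no overlap (exact permutation p = 0.1 for each). That of GAPDH was higher by 0.21 in Col (exact permutation p = 0.1), and its difference was -0.08 in bru1 (exact permutation p = 0.3). The part of the ribosomal signal and of these ratios in the rises was not tested.

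Seedling tissue was checked by its markers. Genes are called measured here if the platform annotation gives them a probe set of 1 gene. The measured genes of photosynthetic tissue, 3 of 13 listed, read 12.09 or higher on every array. None of the 5 listed seed genes had such a probe set in the annotation, so they were not read. Of the photosynthetic genes, PRK fell at 4 h by 0.63 in Col and 0.60 in bru1. LHCB4.1 rose by 0.28 in bru1 (adjusted p = 0.0228), and its change of 0.13 in Col was not called. The changes of RCA, -0.10 and -0.19, were not called. Both measured root genes (2 of 5 listed) fell at 4 h, PYK10 by 1.08 and 1.45 and EXPA7 by 1.18 and 0.82. Their part in the results was not tested.

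Nuclear genes for the same functions were read from lists. Of 15 measured, 4 were called higher and 1 lower in Col at 4 h, and 8 higher and 0 lower in bru1, where 18.2% and 19.9% of all probe sets were called higher. Their median changes were 0.20 and 0.42, and several of them changed more than ccb382 did. On the list for cytochrome c maturation and its products, CCMH, a subunit of the maturation system, changed by -0.05 in Col and 0.09 in bru1, and neither was called. The cytochrome c gene CYTC-2 rose by 1.45 ± 0.27 in bru1 (adjusted p = 3.63e-04), while its change of 0.62 in Col was not called. AT3G27240 fell in Col by 0.49 ± 0.14 (adjusted p = 0.00997).

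On the list for intron splicing, 2 of 6 rose in Col and 4 of 6 in bru1 at 4 h. AT5G46920 rose by 0.79 ± 0.16 (adjusted p = 0.00102) and 0.98 ± 0.16 (adjusted p = 1.27e-04). AT1G19290 rose by 0.69 and 0.73. The first of these fell again to 52 h, by 1.05 in Col and 1.17 in bru1, and none of the list was called against control at 52 h in either genotype.

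On the list for twin-arginine translocation, which also holds plastid components, 1 of 2 measured genes rose in each genotype. It was AT5G43680, with 0.93 ± 0.13 in Col (adjusted p = 1.90e-05) and 0.68 ± 0.13 in bru1 (adjusted p = 3.98e-04). At 4 h it was lower in bru1 than in Col by 0.47 (adjusted p = 0.0206), where orfX was not called. The other measured gene, AT5G28750 (THA4), was lower in bru1 than in Col at 4 h by 0.79 (adjusted p = 1.16e-04). In controls it was lower by 0.43 (adjusted p = 0.0185) and at 52 h by 0.36 (adjusted p = 0.0425). On the list for mitochondrial transcription and RNA decay, AT5G15700 rose by 0.77 ± 0.14 in Col (adjusted p = 2.88e-04) and 1.06 ± 0.14 in bru1 (adjusted p = 1.05e-05). AT5G14580 rose in bru1 by 0.89 (adjusted p = 0.00242) and changed by -0.05 in Col.

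**Figure D5:**
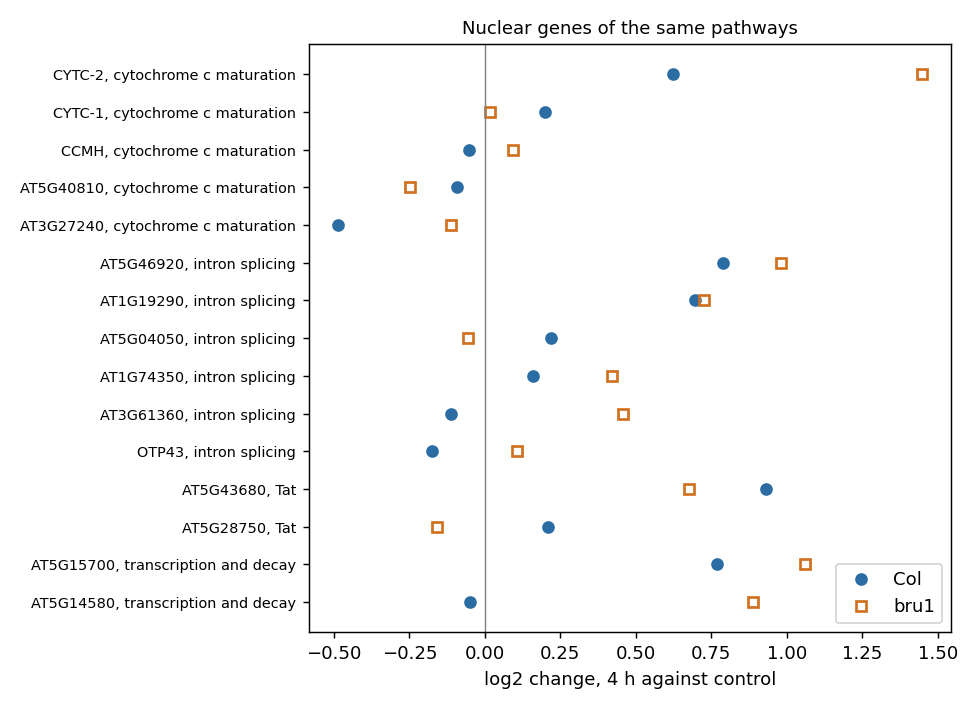
The log2 change at 4 h of the 15 measured nuclear genes for cytochrome c maturation, intron splicing, twin-arginine (Tat) translocation, and mitochondrial transcription and RNA decay, for Col (blue circles) and bru1 (orange squares). The changes run from -0.49 for AT3G27240 in Col to 1.45 for CYTC-2 in bru1.

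Across the 18 arrays the profiles of ccb203, matR and orfX were alike. Pearson's r was 0.977 between ccb203 and orfX, 0.962 between ccb203 and matR and 0.957 between matR and orfX. The values for ccb382 with the others were 0.739 to 0.769. The points share arrays and groups, and these values are a description.

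Among all probe sets of 1 gene, those most like ccb203 were AT2G07678 (r = 0.987), AT2G07749 (0.986) and AT1G27090 (0.984). Those most like matR were AT2G07722 (0.988), AT2G07678 (0.979) and AT1G29470 (0.979). For orfX they were AT1G27090 (0.975), the cold-regulated dehydrin gene COR47 (0.974) and AT2G07678 (0.972). The probe sets most like ccb382 reached lower values, with 0.850 for AT1G48970, 0.842 for AT5G16420 and 0.839 for AT5G54540.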

How the data were processed

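The deposited values are log2 expression levels of 22810 probe sets on 18 ATH1 arrays, and the submitters' processing notes name RMA as the method the authors used. No version is given in the sources used here. Per the labels' protocols, biotin-labelled RNA was prepared after the manual of a whole-transcript kit. How this labelling treats organelle RNA was not tested. Array number limits the precision, with 3 arrays a group and 12 residual degrees of freedom.

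The 64 control probe sets were left out of the tests. Of the other 22746, 13513 have 1 gene in the platform annotation, 503 have several and 8730 are not listed there. Genes of the lists count as measured only with a probe set of 1 gene in that annotation, so others may still be on the array. Mitochondrial and plastid genes were identified by matching symbols and synonyms to RefSeq. The files name no genome build, so no coordinates are given, and no sequences are shown.

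All 6 groups were fitted together with limma 3.58.1 in R 4.3.3 (lmFit, contrasts, eBayes), without a block, and p-values were adjusted by Benjamini-Hochberg over all probe sets tested in each of 12 comparisons. The steps were tested on simulated data. Within-array differences were tested by exact two-sided permutation.

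The genes and gene lists were chosen with earlier results of these data known. All 4 genes are named in each comparison. Of other mitochondrial genes, those of cytochrome c maturation and the highest and lowest change are named, with nuclear genes of the lists as needed, and for each gene the 3 probe sets of highest Pearson r. Alternatives were a fit of only the groups compared, a replicate block, a variance trend, robust fitting, array weights, a second quantile normalisation, median centring, a filter on dim probe sets that left 17667, each array left out in turn, and the mean in place of the median of the reference probe sets. The within-array differences between pairs of the 4 genes and the setting of dim group means to the line of 4.39 were added after the data were seen.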

Additional observations from a re-analysis of the deposited data

How the results depend on the processing

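Of 48 changes (4 genes in 12 comparisons), 15 were called, and 13 of these were called in the same direction under all 8 alternative fits and without each array in turn. The exceptions were ccb203 in Col at 52 h and matR between bru1 and Col at 4 h. The number of genes called in Col at 52 h was 1 as reported, 2 with array weights (ccb203 higher, ccb382 lower by 0.48) and 0 when only the groups compared were fitted, and it ranged from 0 to 1 without single arrays. That for bru1 against Col at 4 h also ranged from 0 to 1. Array weights moved the count from 0 to 2 in bru1 at 52 h, from 0 to 1 for bru1 against Col at 52 h (ccb382, 0.72), and from 0 to 1 for each of the 3 interactions. Those were matR at 4 h (0.88), ccb382 at 52 h (0.99) and matR from 4 h to 52 h (-0.59). They also turned the sign of ccb382 between bru1 and Col at 4 h (-0.014) and of matR at 52 h (0.12), neither called. The cause was not tested.

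With those 2 and the fits without single arrays, 20 signs turned, all of changes that were not called. The values ranged from -0.31 to 0.17 for ccb382 in Col at 52 h and from -0.25 to 0.13 for orfX in bru1 at 52 h. Between untreated bru1 and Col they ranged from -0.055 to 0.18 for ccb203, and between bru1 and Col at 52 h from -0.17 to 0.18 for matR. For the interaction at 4 h they ranged from -0.21 to 0.11 for orfX. For that from 4 h to 52 h they ranged from -0.073 to 0.40 for ccb382 and from -0.057 to 0.21 for ccb203.

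The replicate block changed 0 of the calls, and the blocked count was 3 in Col and 4 in bru1 at 4 h. The replicate numbers did not pair the arrays. Of 45 same-numbered pairs, 10 had residuals correlated over 0.1, with a range from -0.51 to 0.22, and 3 of 18 arrays correlated best with an array of their own number. With the mean in place of the median of the reference probe sets, 29 within-array shifts moved by more than 1 SD and 19 did not. The sizes of the shifts against the mitochondrial and plastid references thus depend on that choice. Other probe sets of the same gene could not be tried, since each gene has 1 in the platform annotation. Dim controls limit the size of the rises of ccb203 and matR.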

Other observations

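Several of the probe sets most like ccb203 and matR belong to nuclear loci whose names begin with AT2G07, a stretch of chromosome 2 that includes the nuclear copy of mitochondrial DNA and other genes. This group was chosen after its members had been seen among the closest profiles, so its values are a description with no test. Of 67 such probe sets with 1 gene, 23 were called higher and 1 lower in Col at 4 h, and 21 higher and 2 lower in bru1. Over all probe sets 18.2% and 19.9% were called higher there. Their median changes were 0.11 and 0.14, and the highest were 4.42 and 4.28. At 52 h 10 were called higher in Col and 4 in bru1, against 6.93% and 3.05% of all probe sets. From 4 h to 52 h 20 were called lower in each genotype, against 16.9% in Col and 20.1% in bru1.

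At 52 h the share of the 4 h change that remained on the log2 scale was 16.2% for ccb203, 11.6% for matR and 15.3% for orfX in Col. Among the other mitochondrial genes that rose in Col it ran from 27.3% for nad4L to 51.0% for cox2. The gene ccb382 was not called at 4 h in Col and has no share there. In bru1 the shares were 50.2% for ccb382, 11.6% for ccb203, 13.9% for matR and -4.45% for orfX. Those of the other mitochondrial genes that rose in bru1 ran from 7.63% for nad7 to 42.8% for cox2. The shares of ccb203, matR, nad5, nad6 and nad7 rest on dim controls in both genotypes, and that of nad9 does in Col. The 52 h means of matR and nad7 were dim as well, so their shares give no measure of what remained. All shares depend on the same controls at both times, were not tested, and are reported as values.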
